A study of Rattus norvegicus with 8 samples.

Results

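Normal lung and blood of rats were compared on an array of messenger RNAs (mRNAs) and long non-coding RNAs (lncRNAs), to describe the transcripts that were bright in one tissue and dim in the other. Of the 24684 transcripts on the array, each measured by 1 probe, 16366 were well above background on all 3 normal lung arrays or on both blood arrays, and these were compared. They comprised 11639 mRNAs, with names starting NM_ or XM_, and 4727 lncRNAs, with any other name. A transcript counted as well above background on an array where the scanner software marked more than 50% of its spots so. The deposited value table lacked 16 of the lncRNAs, so 16350 transcripts were tested.

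All samples came from male F344 rats at week 95 of a lung cancer model induced by the tobacco nitrosamine NNK. The 3 normal lung tissues were matched to lung tumors of NNK-treated rats, and no lung of an untreated rat was used. The blood samples were clots from whole blood, 1 from the control group and 1 from the NNK group, so the blood group joined both treatments and held no replicate of either. The 3 lung tumor arrays were not used. By its title, source and tissue the NNK blood sample was a clot, although its free-text description was worded for a tumor. The labels do not say whether the lung samples came from separate rats, and the p-values measure only the spread between these arrays.

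Lung is built from an epithelium that exchanges gas and secretes surfactant, a dense bed of capillaries, a connective tissue frame and resident macrophages, and it always holds some blood. RNA of whole blood comes from reticulocytes, platelets and white cells, and globin transcripts are known to dominate it. Type 2 alveolar cells make the surfactant proteins under the control of NKX2-1, whereas GATA1 and KLF1 drive red cell genes. In bulk tissue, fewer cells of a type and less RNA per cell cannot be told apart.

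Promoters of 4 genes from opposite sides of the comparison are shown first, because they hold short words that these regulators are known to read. The sequences are those of RefSeq (build GRCr8), from 250 bases before to 50 bases after the start, on the strand of the gene. Capitals mark every match, on either strand, to 4 motifs. AGATAA is a GATA site, and CCACACCC is a box of the kind that KLF1 reads. CAAGTG is a site of the NKX2-1 type. CTCAAG is another site of that type, and none of the matches shown overlaps another. Alas2 (chrX:22895200-22895499, + strand) encodes the first enzyme of red cell heme synthesis. Hbb (chr1:167663672-167663971, - strand) encodes beta globin. Sftpb (chr4:105917338-105917637, + strand) encodes surfactant protein B, and Scgb1a1 (chr1:215409637-215409936, - strand) the club cell secretory protein.
Alas2: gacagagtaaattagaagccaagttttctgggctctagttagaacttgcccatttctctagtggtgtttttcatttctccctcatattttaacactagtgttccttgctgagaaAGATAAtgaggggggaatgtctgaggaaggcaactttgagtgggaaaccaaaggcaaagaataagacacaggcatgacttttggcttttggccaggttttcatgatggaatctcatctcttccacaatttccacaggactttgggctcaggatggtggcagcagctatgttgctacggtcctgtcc
Hbb: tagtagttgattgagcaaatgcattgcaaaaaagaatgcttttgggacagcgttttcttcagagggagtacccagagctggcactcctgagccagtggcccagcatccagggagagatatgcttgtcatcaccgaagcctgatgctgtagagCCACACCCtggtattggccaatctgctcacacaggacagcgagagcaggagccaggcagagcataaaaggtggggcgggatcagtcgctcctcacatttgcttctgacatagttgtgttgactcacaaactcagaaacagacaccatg
Sftpb: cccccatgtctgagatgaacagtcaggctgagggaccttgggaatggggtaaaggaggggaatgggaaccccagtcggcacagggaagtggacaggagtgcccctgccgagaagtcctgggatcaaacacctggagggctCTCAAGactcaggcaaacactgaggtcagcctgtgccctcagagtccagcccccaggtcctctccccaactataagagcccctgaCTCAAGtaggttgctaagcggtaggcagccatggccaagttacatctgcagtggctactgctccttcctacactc
Scgb1a1: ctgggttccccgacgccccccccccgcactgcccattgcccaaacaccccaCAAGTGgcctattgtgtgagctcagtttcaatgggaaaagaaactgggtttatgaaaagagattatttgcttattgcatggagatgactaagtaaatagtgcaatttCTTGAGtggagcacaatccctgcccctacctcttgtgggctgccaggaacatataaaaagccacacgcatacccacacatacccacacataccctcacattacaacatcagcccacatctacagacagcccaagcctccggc

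The AGATAA match of Alas2 began 136 bases before the start and the CCACACCC match of Hbb 98 bases before it. Sftpb held CTCAAG at 110 and at 25 bases before the start. Scgb1a1 held CAAGTG at 199 bases and CTCAAG, on the opposite strand, at 92 bases. Such words are common, and AGATAA stood in 11.6% of all 33469 RefSeq promoters of this length, CCACACCC in 3.22%, CAAGTG in 14.1% and CTCAAG in 15.8%. Among the red cell genes that were higher in blood, 19 of 28 had a promoter in the RefSeq table, of which 4 held AGATAA and 2 held CCACACCC. Of these 19, 4 also held CAAGTG, and CTCAAG stood in 2. Among the platelet genes AGATAA stood in 3 of 7 promoters and CTCAAG in 2, and CAAGTG and the CCACACCC box in none. Of the lung genes, CAAGTG stood in 3 of 8 promoters of type 2 cells, in 1 of 10 of type 1 cells and in 4 of 6 of airway cells. The corresponding counts were 1, 1 and 3 for CTCAAG, 0, 0 and 2 for AGATAA and 0, 2 and 0 for CCACACCC. Each of the 4 words was present in genes of both sides. A match describes letters only, and no binding was measured.

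The tissues lay far apart. Between a lung and a blood array, 83.6 to 86.8% of the tested transcripts differed at least 2-fold, and Pearson's r across transcripts, which are not independent, was 0.252 to 0.383. The blood arrays differed from each other at least 2-fold at 44.4% of transcripts (r = 0.909) and the lung arrays at 2.54 to 3.05% (r = 0.995). Squared differences between lung arrays were 0.464 to 0.715 times those expected from the spread of the repeated spots of lncRNAs, against 1.59 for the blood pair. Since the lung arrays differed by less than this noise, results are also given with the 3 averaged and counted as 1 sample. The lung arrays shared one scan and the blood arrays another, on a different day, so scan and tissue cannot be told apart.

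Blood signal was concentrated in few transcripts. The 50 brightest probes held 39.5% of the processed signal of the control blood array and 37.7% of that of the NNK blood array, against 7.34 to 7.56% in lung. The 75th percentile of the processed signal was 95.4 and 206 on the blood arrays and 1191 to 1329 in lung. The authors' quantile normalization gave all arrays one distribution of log2 values, so a value here states a place within its array.

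Of the mRNAs, 5410 were higher in normal lung (46.5%) and 3397 in blood (29.2%), called where the difference was 2-fold or more with a Benjamini-Hochberg adjusted p of 0.05 or less in limma. Of the lncRNAs, 1691 were higher in lung (35.9%) and 2226 in blood (47.3%). Lung and blood arrays did not overlap at 88.6% of mRNAs and 91.4% of lncRNAs. A transcript above background in one tissue alone was mostly called for that tissue, as were 2002 of 2088 such mRNAs in lung. The 7375 mRNAs and 2273 lncRNAs above background on all 5 arrays were therefore counted apart. Of these mRNAs 2703 were higher in lung (36.7%) and 2445 in blood (33.2%), and of these lncRNAs 635 were higher in lung (27.9%) and 1128 in blood (49.6%). A further 2088 mRNAs and 981 lncRNAs were above background in lung alone, and 575 mRNAs and 797 lncRNAs in blood alone. With the lung arrays counted as 1 sample, 1856 mRNAs were called higher in lung and 1617 in blood, and 589 and 1165 lncRNAs.

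**Figure D1:**
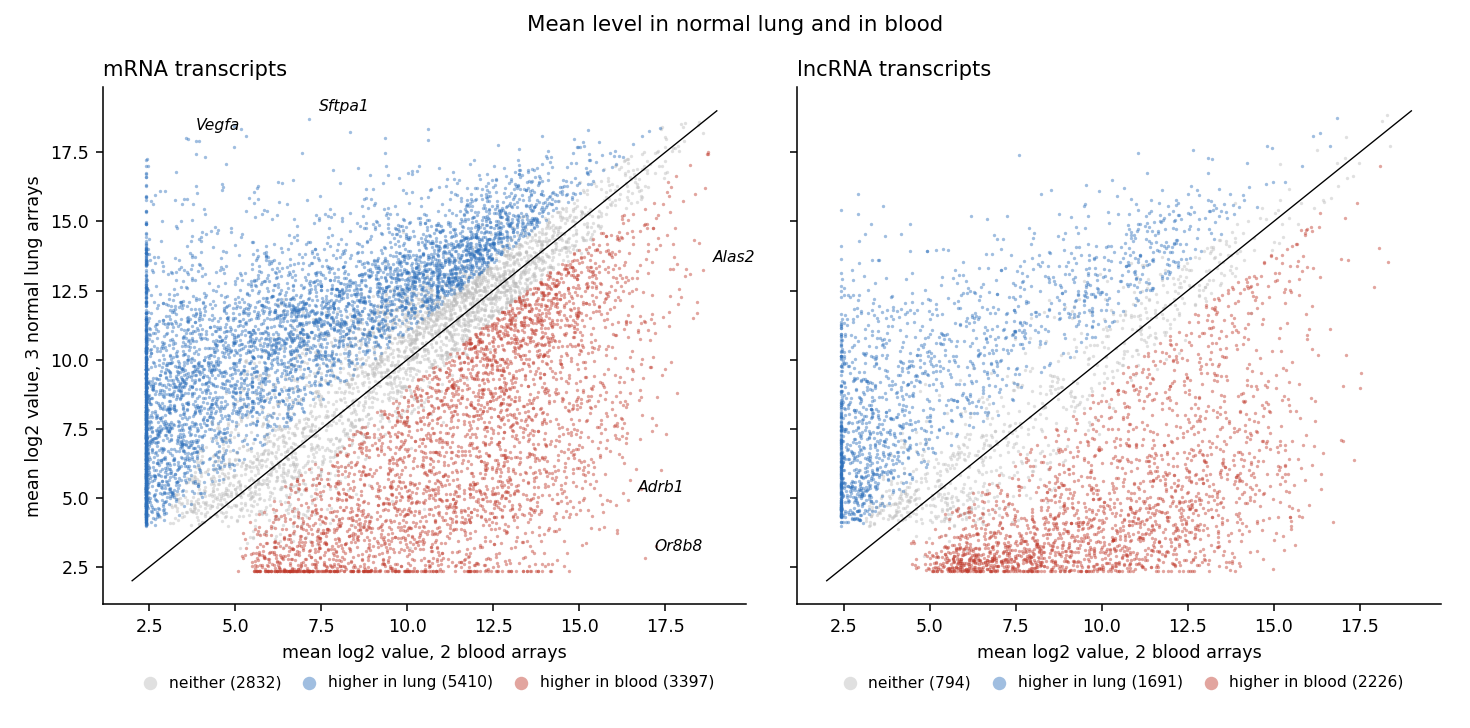
Mean deposited log2 value of each tested transcript on the 2 blood arrays (x axis) and on the 3 normal lung arrays (y axis), for mRNAs (left) and lncRNAs (right), coloured by the call in limma. The points spread far from the diagonal in both directions, with 5410 mRNAs in the lung colour against 3397 in the blood colour.

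The split between tissues moved with the scaling. The median difference, lung minus blood on the log2 scale, was 0.86 over all transcripts tested, 1.25 over mRNAs and -0.97 over lncRNAs. A shift of each array to its own 75th percentile moved the medians of mRNAs and lncRNAs to -0.01 and -2.56, with 4248 mRNAs higher in lung and 4517 in blood, and 1065 and 2848 lncRNAs. Shifting to the 75th percentile of shared probes gave 4085 and 4527 mRNAs and 1037 and 2828 lncRNAs. Without scaling, 8367 mRNAs were higher in lung and 1829 in blood, and the lncRNAs turned to 2406 higher in lung and 1682 in blood. Quantile normalization within each kind of transcript gave 2074 lncRNAs higher in lung and 1899 in blood. The excess of lncRNAs on the blood side therefore held under some of these scalings and not under others.

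**Figure D2:**
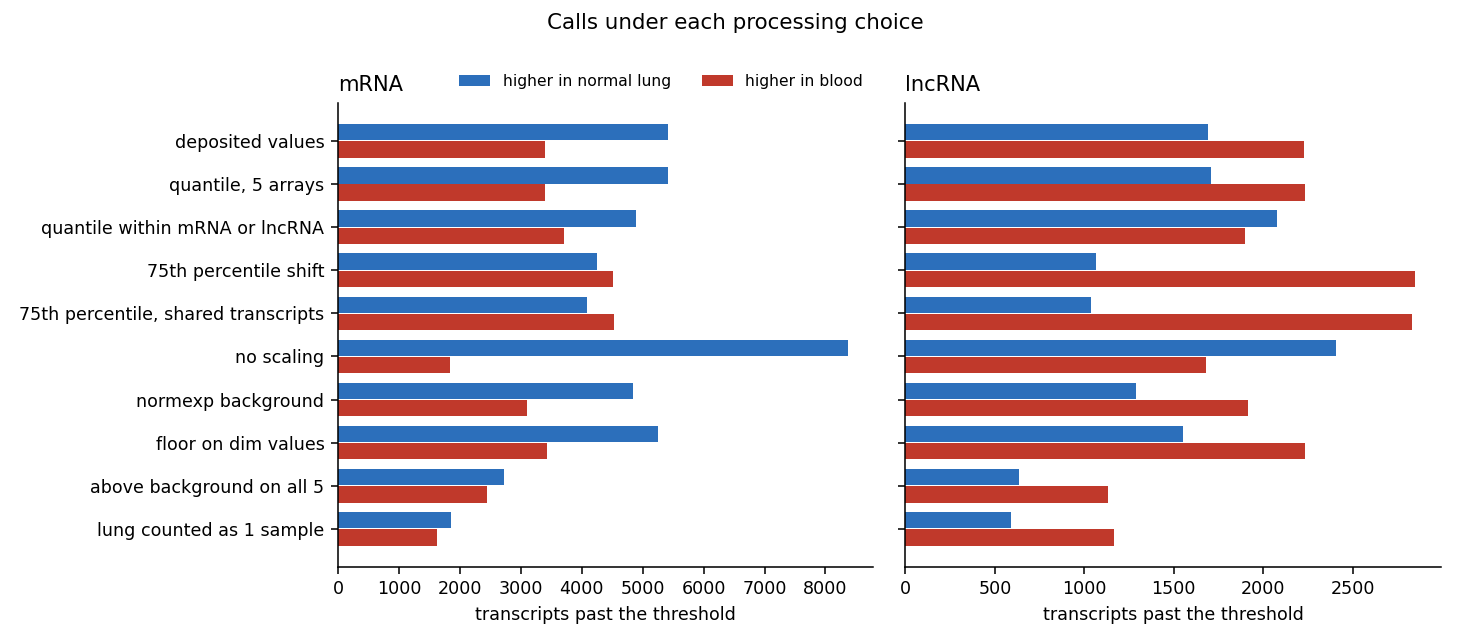
Number of transcripts called (x axis) as higher in normal lung (blue) and higher in blood (red), for mRNAs (left) and lncRNAs (right), under each processing choice (rows). For lncRNAs the longer bar changes side without scaling (2406 and 1682) and with quantile normalization within each kind of transcript (2074 and 1899).

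The surfactant protein Sftpa1 led the mRNAs that were measured in both tissues and higher in lung. Its log2 values were 18.76, 18.70 and 18.70 on the lung arrays and 7.10 and 7.20 in control and NNK blood, and it was 3038-fold higher in lung (11.57 ± 0.13 SE on the log2 scale, adjusted p = 1.05e-05 in limma). Every lung array stood above every blood array, with processed signals of 339348 to 367647 against 28.1 and 73.8. Ccn2, a matrix-associated growth regulator, had 17.47, 17.43 and 17.50 in lung and 5.70 and 8.21 in blood (10.51 ± 0.79, adjusted p = 3.67e-04 in limma). Its value in NNK blood stood above that in control blood, and both lay far under lung. Errfi1, a feedback inhibitor of the EGF receptor, had 16.07, 16.01 and 16.08 in lung and 5.54 and 5.55 in blood, 1452-fold higher in lung. The others of the leading 10 were the YAP inhibitor Amotl2, the tight junction protein Tjp1, Scgb1a1, the secreted proteins Wfdc2 and Wfdc1, the cadherin Fat1 and the desmosome-associated Perp, with log2 differences from 9.12 to 10.20. A lack of overlap between the tissues was required for the choice of these 10, and 88.6% of all tested mRNAs met it.

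Where blood was not above background, only a bound can be given. It sets the lung mean against the blood mean of, per array, the higher of the transcript's own value and the lowest log2 value well above background, which was 4.44 in control blood and 3.95 in NNK blood. Vegfa, the main growth factor of capillaries, had 17.98, 18.00 and 17.99 in lung and 3.66 and 3.60 in blood and was at least 14167-fold higher in lung. The aldo-keto reductase Akr1c15 was at least 8548-fold higher, the serine protease Prss23 at least 8364-fold, the lung epithelial receptor Gprc5a at least 8327-fold and the endothelial anticoagulant thrombomodulin, Thbd, at least 8269-fold. The cytochrome Cyp4b1, the matrix protein Igfbp7, the carboxylesterase Ces1d, the type 1 cell marker Pdpn and the transport protein Mal2 followed, with bounds from 5823 to 7229. Their adjusted p in limma ran from 1.05e-05 to 5.09e-05.

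The mRNAs measured in both tissues and highest in blood were a mixed set. Tmem179, a membrane protein, had 6.30, 5.06 and 4.58 on the lung arrays and 16.81 and 16.77 in blood, 2865-fold higher in blood (-11.48 ± 0.57, adjusted p = 9.87e-05 in limma). The beta-1 adrenergic receptor Adrb1, best known from the heart, had 4.79, 5.09 and 4.93 in lung and 16.43 and 16.39 in blood (-11.48 ± 0.16). The hair keratins Krt88 and Krt84 had 16.19 and 15.95, and 15.20 and 15.29, in blood, and lung values of 4.50 to 5.01 and 4.42 to 4.83. Control and NNK blood gave nearly equal values in each of these 4 genes. Cdc25b, a phosphatase of the cell cycle, the claudin Cldn34d, the sarcosine dehydrogenase Sardh and the olfactory receptor Or1e16d had log2 differences of -10.92 to -11.22. Cd52, a surface glycoprotein of lymphocytes, had 16.51 and 16.43 in blood against 5.53 to 5.72 in lung, 1809-fold higher in blood. Glycam1, a mucin-like glycoprotein, had 16.60 and 16.68 against 5.86 to 6.18.

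Where lung was not above background, the olfactory receptor Or8b8 led, with 16.91 and 16.90 in blood and 3.69, 2.36 and 2.37 in lung, at least 11159-fold higher in blood. Its processed signals were 64871 and 63963 in blood and 2.8 to 12 in lung. Saxo5 was at least 3159-fold higher, the olfactory receptor Or4a66 at least 2588-fold, the claudin Cldn34a at least 2374-fold, the splicing factor Usp39 at least 2355-fold and the sugar nucleotide enzyme Gmppb at least 2180-fold. The gasdermin relative Gsdmdl1, the olfactory receptor Or4k36, the chemokine Ccl25 and the calcium-binding Cpne5 had bounds from 1777 to 2064. All 40 mRNAs named so far as leading kept their direction and call under each scaling, with each array left out and with the lung arrays counted as 1 sample. They were chosen for their large differences, so this does not carry over to other transcripts.

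Marker genes of lung cells were mostly higher in lung. For this and each later list, the share over all tested mRNAs was 46.5% higher in lung and 29.2% in blood with the deposited values. Over all 11639 mRNAs, 4248 were higher in lung and 4517 in blood after the 75th percentile shift, and 8367 and 1829 without scaling. With the lung arrays counted as 1 sample these counts were 1856 and 1617. Of the 12 type 2 alveolar cell genes on the array all were tested, 11 were higher in lung and none in blood, and 9 of the 12 were above background on all 5 arrays. Their median difference was 4.37, against 1.25 over all mRNAs. Sftpb had 17.82, 17.68 and 17.55 in lung and 4.72 and 5.23 in blood, with 1 of the 2 blood arrays above background, and Sftpc, the most specific marker of these cells, was at least 1140-fold higher in lung. Sftpd, a collectin of the surfactant, had 17.17 to 17.29 in lung and 12.54 and 11.34 in blood (5.29 ± 0.40, adjusted p = 3.63e-04 in limma). The protease Napsa had 15.95 to 16.05 against 14.17 and 15.12 (1.36 ± 0.33, adjusted p = 0.017 in limma). Sftpd and Napsa were thus bright on the blood arrays as well, unlike Sftpb and Sftpc. The remaining member, Nkx2-1, had 16.87, 16.67 and 16.63 in lung and 16.59 and 16.59 in blood (0.14 ± 0.15, adjusted p = 0.44 in limma). Its processed signals were 125657 to 138503 in lung and 42260 and 42192 in blood, and after the 75th percentile shift its difference was -2.44.

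Of 13 genes of type 1 alveolar cells, 11 were higher in lung, 7 of them above background in lung alone, and the median difference was 9.63. Ager, the receptor that marks this cell, had 18.30, 18.30 and 18.40 in lung and 10.92 and 10.26 in blood (7.74 ± 0.25). Caveolin-1, Cav1, had 18.30 to 18.35 against 5.73 and 4.62, where 1 array was above background, the chloride channel protein Clic5 18.02 to 18.04 against 8.65 and 10.08, and the homeodomain protein Hopx 17.30 to 17.38 against 13.67 and 14.41. The lung values were far above both blood values in each of these genes. Rtkn2, a signalling scaffold protein, went the other way, with 11.44 and 10.35 in blood and 2.47 to 2.67 in lung, where no array was above background, at least 185-fold higher in blood. Cldn18, the claudin of alveolar tight junctions, had 15.41 to 15.50 in lung and 15.40 and 15.20 in blood (0.16 ± 0.15, adjusted p = 0.36 in limma), and -1.31 after the 75th percentile shift.

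Airway genes were higher in lung at 7 of the 10 tested of 13 on the array, 4 of them above background in lung alone. Scgb1a1 had 18.23, 18.02 and 18.46 in lung and 9.75 and 6.93 in blood, 954-fold higher in lung (9.90 ± 0.90). Cyp4b1, a detoxifying cytochrome, was at least 7229-fold higher, the ciliated cell gene Tppp3 had a log2 difference of 5.01, and Bpifa1, a secreted defence protein, had 12.48 to 12.51 against 9.51 and 8.77. Rsph1, a radial spoke protein of cilia, was higher in blood, at 17.53 and 17.73 against 12.26 to 12.30 in lung (-5.34 ± 0.14).

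Endothelial genes were higher in lung at 12 of the 13 tested of 14, with a median of 6.03, and 4 of them were above background in lung alone. The angiopoietin receptor Tek had 16.94 to 17.09 in lung and 10.11 and 8.64 in blood (7.63 ± 0.48). Sox17 and Clec14a, genes of vessel identity, had 16.28 to 16.31 and 16.24 to 16.32 in lung against 6.51 and 4.82, and 2.45 and 5.25, in blood, where each was above background on 1 of the 2 arrays. Tmem100 was at least 1666-fold higher in lung. The exception was the VEGF receptor Flt1, with 3.42, 3.96 and 3.70 in lung, 2 of these arrays being above background, and 11.51 and 10.02 in blood (-7.07 ± 0.51, adjusted p = 3.23e-04 in limma). Flt1 thus stood on the side opposite to its ligand Vegfa. Cdh5, the endothelial cadherin, was above background on none of the 5 arrays.

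Fibroblast and matrix genes were higher in lung at 11 of 12, with a median of 5.56. They were led by the glypican Gpc3, with 17.67 to 17.86 against 12.73 and 12.55, elastin (Eln), with 16.22 to 16.40 against 12.32 and 12.24, the collagen Col3a1, with 16.18 to 16.30 against 2.45 and 6.85 (1 blood array above background), and the transcription factor Tcf21, with 15.03 to 15.22 against 8.85 and 7.37. Fbln1, a matrix glycoprotein, was higher in blood, at 13.85 and 14.29 against 10.74 to 10.90. Smooth muscle and pericyte genes were divided, with 6 of 10 higher in lung and 4 in blood, beside 46.5% and 29.2% of all mRNAs. The contractile genes Mylk (2.39) and Tagln (4.70) were higher in lung by the log2 differences given, Cnn1 at least 94.2-fold and the pericyte receptor Pdgfrb at least 72.5-fold. The intermediate filament desmin, Des (-2.80), the myosin light chain Myl9 (-6.37), the actin regulator Lmod1 (-6.46) and the receptor Notch3 (-1.31) were higher in blood, and without scaling Des and Notch3 turned to the lung side.

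Of the alveolar macrophage list 9 of the 12 tested were higher in lung. The glycoprotein Gpnmb had 16.95 to 16.99 in lung against 14.30 and 14.12 in blood, the mannose receptor Mrc1 was at least 3161-fold higher in lung, and the galectin Lgals3 (1.55 ± 0.35) and the lipid receptor Trem2 (5.54 ± 0.44) were also higher there. Mcemp1 was higher in blood, at 14.33 and 15.41 against 13.14 to 13.39, and turned to the lung side without scaling. Marco and Cd163, which define tissue macrophages, were above background on none of the 5 arrays.

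**Figure D3:**
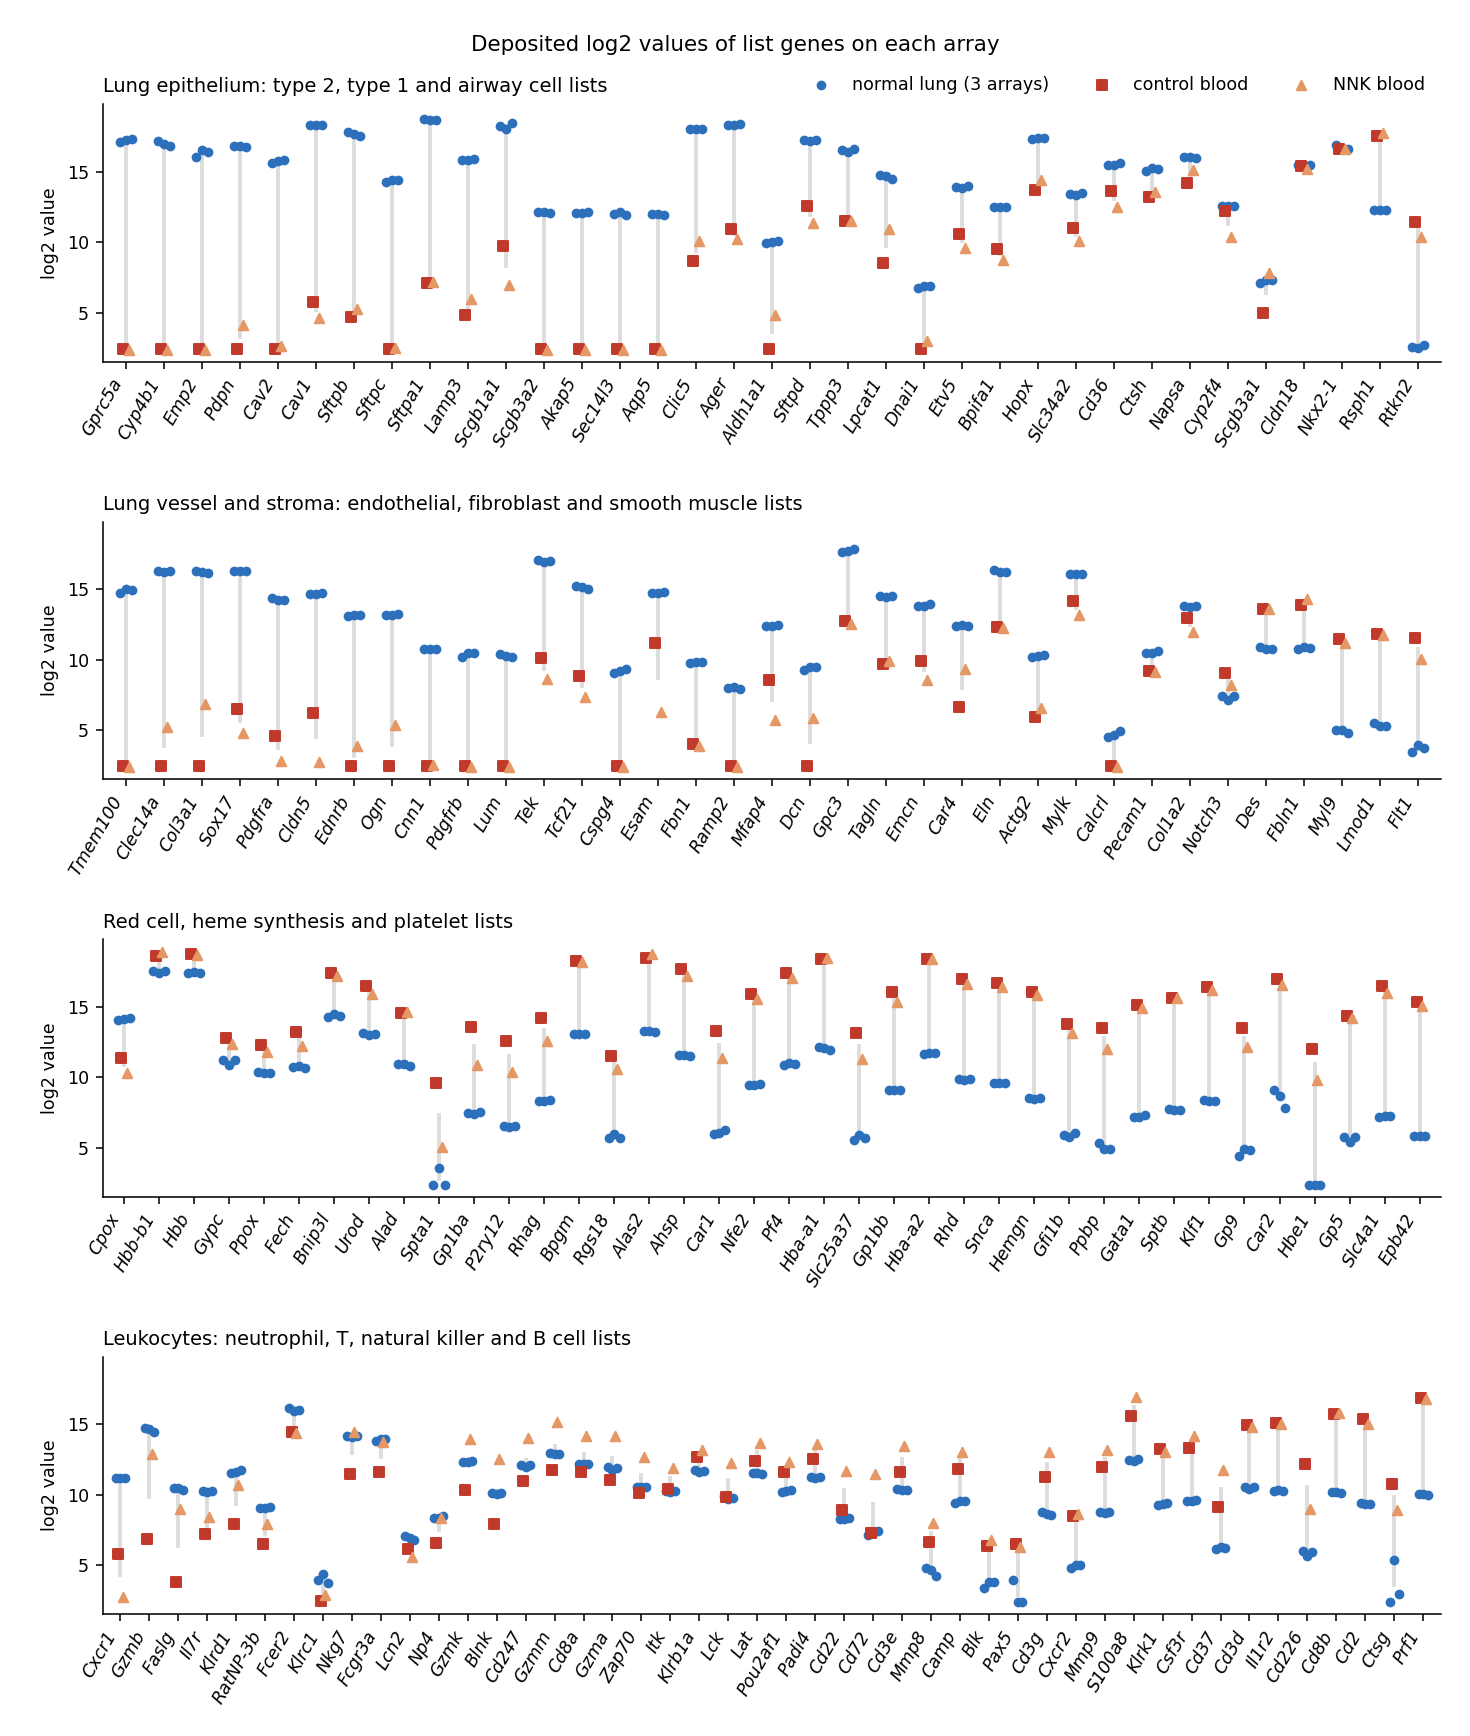
Deposited log2 value (y axis) of tested list genes (x axis, ordered by lung minus blood) on the 3 normal lung arrays (blue circles), the control blood array (red squares) and the NNK blood array (orange triangles), with a grey line between the group means. The lung points of a gene lie close together, red cell and platelet genes lie higher in blood except Cpox, and the orange triangle lies above the red square for 10 of 12 T cell genes.

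Red cell genes lay almost wholly on the blood side. Of the 29 tested genes, 28 were higher in blood and 1 in lung, with a median difference of -5.90, and 27 were above background on all 5 arrays. Beta globins sat near the top of both tissues, Hbb with 17.38, 17.50 and 17.43 in lung and 18.77 and 18.70 in blood and Hbb-b1 with 17.40 to 17.57 against 18.64 and 18.86. The alpha globin Hba-a1 had 11.96 to 12.16 in lung and 18.38 and 18.44 in blood (-6.34 ± 0.15). Globin genes are near-identical copies, so their probes may share signal. Alas2 had 13.24 to 13.28 in lung and 18.46 and 18.76 in blood. The processed signals of Hbb, Hbb-b1 and Alas2 in NNK blood were 659641, 659643 and 659642, and those of Hbb and Hbb-b1 in control blood 658487 and 657890. The scanner software marked no spot as saturated, yet these probes share one ceiling, so their levels in blood are lower limits and no exact difference is given. The red cell membrane genes Slc4a1 (band 3), with 7.18 to 7.25 in lung and 16.47 and 16.01 in blood, and Epb42, with 5.79 to 5.86 and 15.31 and 15.03, had the widest gaps of the list. Of the heme pathway, Alad, Urod, Ppox and Fech were higher in blood, with log2 differences of -1.72 to -3.70. This depended on the scaling. The processed signals of Ppox were 2435 to 2719 in lung and 399 and 540 in blood, and those of Fech 3320 to 3945 against 964 and 698. Without scaling both thus lay on the lung side. Alad overlapped, at 3549 to 4492 against 3860 and 5169, and Urod stayed higher in blood, at 17872 to 18758 against 35029 and 19613. The coproporphyrinogen oxidase Cpox was higher in lung, with 14.09 to 14.20 against 11.36 and 10.32 (3.30 ± 0.35, adjusted p = 0.0012 in limma).

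All 10 tested platelet genes were higher in blood, with a median of -6.43, and all 10 were above background in lung as well. The platelet chemokine Pf4 had 10.88, 10.99 and 10.97 in lung and 17.40 and 17.03 in blood (-6.27 ± 0.18). Nfe2, a transcription factor of platelet formation, had 9.46 to 9.54 against 15.88 and 15.53, and Gp1bb and Gp5, subunits of the von Willebrand factor receptor, 9.07 to 9.10 against 16.04 and 15.32 and 5.40 to 5.75 against 14.32 and 14.24.

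White cell genes were less uniform. Of 14 tested neutrophil genes 9 were higher in blood and 3 in lung, beside 29.2% and 46.5% of all mRNAs. The alarmin S100a8 had 12.41 to 12.51 in lung and 15.57 and 16.96 in blood (-3.79 ± 0.45), and the decoy receptor Il1r2 (-4.73), the G-CSF receptor Csf3r (-4.14) and the histone-modifying Padi4 (-1.85) were higher in blood. The chemokine receptor Cxcr1, above background on 1 blood array, had 11.16 to 11.22 in lung against 5.78 and 2.77 in blood, and the defensin RatNP-3b (1.86) and the siderophore-binding Lcn2 (1.11) were higher in lung too. Of 12 tested T cell genes 6 were higher in blood and 1 in lung. The coreceptor chain Cd8b had 10.16 to 10.17 against 15.76 and 15.79, the adhesion receptor Cd2 9.32 to 9.44 against 15.37 and 15.01 and the receptor chain Cd3d 10.43 to 10.53 against 14.95 and 14.78. These 3 genes did not overlap between the tissues, which was also true of 88.6% of all tested mRNAs. The signalling adaptor Lat was also higher in blood (-1.53), and the interleukin receptor Il7r higher in lung (2.41 ± 0.38). Cd4 was above background on none of the 5 arrays.

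Of 12 tested genes of natural killer and cytotoxic cells 4 were higher in blood and 1 in lung, beside 29.2% and 46.5% of all mRNAs. Without scaling these counts were 2 and 7, beside 1829 and 8367 of all 11639 mRNAs. The pore protein Prf1 had 9.99 to 10.06 in lung and 16.87 and 16.78 in blood (-6.80 ± 0.13), and the receptors Klrk1 (-3.82), Klrb1a (-1.24) and Cd226 (-4.74) were higher in blood too. The receptor Klrc1 was called higher in lung, at 3.72 to 4.39 against 2.45 and 2.87, but blood was not above background, and no fold can be given. Of 8 tested B cell genes the coactivator Pou2af1 (-1.70), the tetraspanin Cd37 (-4.21), the kinase Blk and the B cell factor Pax5 were higher in blood, the last 2 with values of 6.39 and 6.78, and 6.50 and 6.30, while only 1 lung array was above background, and the IgE receptor Fcer2 was higher in lung (1.62 ± 0.14). Cr2 and Cxcr5, which mark B cells, were above background on none of the 5 arrays.

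The blood arrays differed from each other in white cell genes. NNK blood stood above control blood in 10 of 12 T cell genes, 9 of 12 natural killer genes, 6 of 8 B cell genes and 10 of 14 neutrophil genes, and the median difference, control minus NNK, was -1.66 for T cell and -2.87 for natural killer genes. Those directions were counted at any size. At least 2-fold higher in NNK blood were 9, 7, 4 and 8 genes of these lists in the same order, and in control blood 0, 1, 0 and 2. Over all 11639 mRNAs the difference, control minus NNK, had a median of 0.085, and 3004 were at least 2-fold higher in NNK blood and 2182 in control blood. Lung overlapped the range of the blood arrays in 4 T cell genes, Cd247, Cd8a, Lck and Zap70, and in 4 natural killer genes, Nkg7, Gzma, Gzmk and Gzmm. At 88.6% of all tested mRNAs the tissues did not overlap. Without control blood, 11 of 12 T cell genes were higher in blood, and without NNK blood 5, where the spread comes from the 3 lung arrays and the lone blood array is assumed to vary like them. With 1 blood array per treatment, the difference between the blood samples could not be tested. Of 12 tested monocyte genes 5 were higher in blood and 4 in lung, beside 29.2% and 46.5% of all mRNAs. The Fc receptor Fcgr1a, the ficolin Fcnb, the endotoxin receptor Cd14 and the cytokine receptor Csf2rb were among those higher in blood, with differences of -2.10 to -4.92. The fractalkine receptor Cx3cr1, the transcription factor Nr4a1 and the lysozyme Lyz2 were among those higher in lung, with differences of 1.25 to 3.28.

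White cell calls depended on the scaling more than red cell and platelet calls did. Without scaling 2 of 14 neutrophil, 3 of 12 T cell and 1 of 12 monocyte genes were higher in blood and 6, 7 and 7 were higher in lung. Of the red cell genes 22 of 29 were still higher in blood and 4 in lung, and of the platelet genes 9 of 10 in blood. Over all 11639 mRNAs without scaling, 1829 were higher in blood and 8367 in lung, so the white cell counts partly follow that general move. With the lung arrays counted as 1 sample, 16 of 29 red cell and 8 of 10 platelet genes were called higher in blood, beside 1617 of all 11639 mRNAs. In the same setting 5 of 12 type 2 and 10 of 13 type 1 cell genes were called higher in lung, beside 1856 of all 11639.

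Of 13 tested lung transcription factors 10 were higher in lung. Hopx, Sox17 and Tcf21 were among them, and Tbx4, a factor of lung mesenchyme, was at least 1739-fold higher. Elf3, an epithelial factor, had 9.62 to 9.74 in lung and 14.94 and 15.00 in blood (-5.31 ± 0.14), and Tbx3, above background on 1 lung array, was also higher in blood, at 10.75 and 7.90. Of 14 tested blood factors 10 were higher in blood. Klf1 had 8.33 to 8.36 in lung and 16.42 and 16.16 in blood (-7.94 ± 0.15), and Gata1 7.15 to 7.33 against 15.15 and 14.91 (-7.82 ± 0.16). Tal1, a factor of blood and endothelium, had 12.11 to 12.34 against 14.77 and 13.70. Lmo2 (2.00), Gfi1 (2.28) and the B cell factor Ebf1 (2.85) were higher in lung.

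Genes of other organs and of general cell functions were counted as well. Of 18 tested liver and plasma protein genes 12 were higher in lung and 3 in blood, beside 46.5% and 29.2% of all mRNAs, and 8 of the 18 were above background in lung alone. The cytochrome Cyp2e1 had 15.03 to 15.06 against 13.74 and 13.59, the fibrinogen chain Fgg had 14.58 to 14.66 against 2.45 and 7.31, with 1 blood array above background, albumin (Alb) differed by 3.28, and the kininogen Kng1 was at least 232-fold higher in lung. The fibrinogen chain Fga (-2.47), the protease inhibitor Serpina1 (-3.89) and the tryptophan dioxygenase Tdo2 (-3.26) were higher in blood. Among the 7 above background on all 5 arrays 2 were higher in lung and 3 in blood, with a median of -1.14, and after the 75th percentile shift 8 of the 18 were higher in lung and 6 in blood. Of 11 heart muscle genes on the array 6 were tested, and the troponin Tnni3 (3.83), the calcium pump regulator Pln (at least 8.75-fold) and the myosin Myh6 (at least 1.9-fold) were higher in lung and the natriuretic peptide Nppa in blood (-3.98). The troponin Tnnt2 was called higher in lung, at 4.04 to 4.31 against 2.45 and 2.36, but no fold can be given, since blood was not above background and lung stood at that level. Ryr2 and Actc1, which define heart muscle, were above background on none of the 5 arrays. Of 11 skeletal muscle genes 5 were tested and 4 were higher in lung, the actin Acta1 (8.26 to 8.35 against 5.42 and 3.14, with 1 blood array above background), the calcium-binding Casq1 (at least 5.09-fold), the myosin Myh1 (at least 2.64-fold) and the troponin Tnni2 (at least 1.69-fold). After the 75th percentile shift none of these 5 was higher in lung and 3 were higher in blood.

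Of 9 tested proliferation genes the cell cycle kinase Cdk1 and the DNA synthesis genes Rrm2, Mcm2 and Tyms were higher in blood, with differences of -1.93 to -2.32, and the replication clamp Pcna (3.00) and the cyclin Ccna2 (at least 29-fold) were higher in lung. Of 14 genes often used as references 6 were higher in lung and 2 in blood, beside 46.5% and 29.2% of all mRNAs. Among the 6 were Ppia (1.04), Hprt1 (1.82) and Sdha (3.65). Gapdh (-4.62) and Actb (-2.41) were higher in blood. The split of the 14 was 2 higher in lung and 7 in blood after the 75th percentile shift, and 10 and 1 without scaling. The ribosomal stalk gene Rplp0 overlapped between tissues, with 17.47 to 17.79 in lung and 17.74 and 17.82 in blood. The processed signals of Actb were 19330 to 19628 in lung and 19420 and 9834 in blood, and without scaling its difference turned to 0.50.

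The chemosensory receptor genes were chosen for description after their values were seen. The array held 1098 probes for olfactory receptors, which are known from the nasal epithelium. Of these 319 and 322 were above background on the control and NNK blood arrays (29.1 and 29.3%), against 127, 151 and 165 on the lung arrays (11.6, 13.8 and 15.0%). Over all mRNA probes the order was the reverse, with 60.3 and 61.6% above background in blood and 72.3 to 73.9% in lung. Of the 251 olfactory receptor transcripts tested, 231 were higher in blood (92.0%) and 3 in lung, beside 29.2% and 46.5% of all mRNAs. Their median difference was -5.76. Only 66 of them were above background on all 5 arrays, against 118 in blood alone and 5 in lung alone. Over all 11639 mRNAs the corresponding counts were 7375, 575 and 2088. A transcript above background in blood alone was mostly called for blood, so the 92.0% partly reflects how these transcripts entered. Without scaling 205 of the 251 were higher in blood, and with the lung arrays counted as 1 sample 160. Of all 11639 mRNAs, 1829 and 1617 were higher in blood in these settings. Of 36 vomeronasal and trace amine receptors tested 32 were higher in blood, and of the 36, 20 were above background in blood alone and 4 on all 5 arrays.

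Of 17 tested keratins 10 were higher in blood and 3 in lung, beside 29.2% and 46.5% of all mRNAs. The simple epithelial keratin Krt8 was one of these 3, with 14.61 to 14.66 in lung against 2.45 and 6.16 in blood, where 1 array was above background, and Krt25 was on the blood side, with 3.87 to 4.51 against 12.47 and 12.28. As a contrast, of 74 tested transcripts of cytosolic ribosomal proteins 16 were higher in lung and 16 in blood, with a median difference of 0.11. Of 38 proteasome transcripts 15 were higher in lung (39.5%) and 9 in blood (23.7%), not far from the shares over all mRNAs. The ribosomal split was 48 and 3 without scaling and 3 and 60 after the 75th percentile shift. Over all 11639 mRNAs the splits were 8367 and 1829, and 4248 and 4517.

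**Figure D4:**
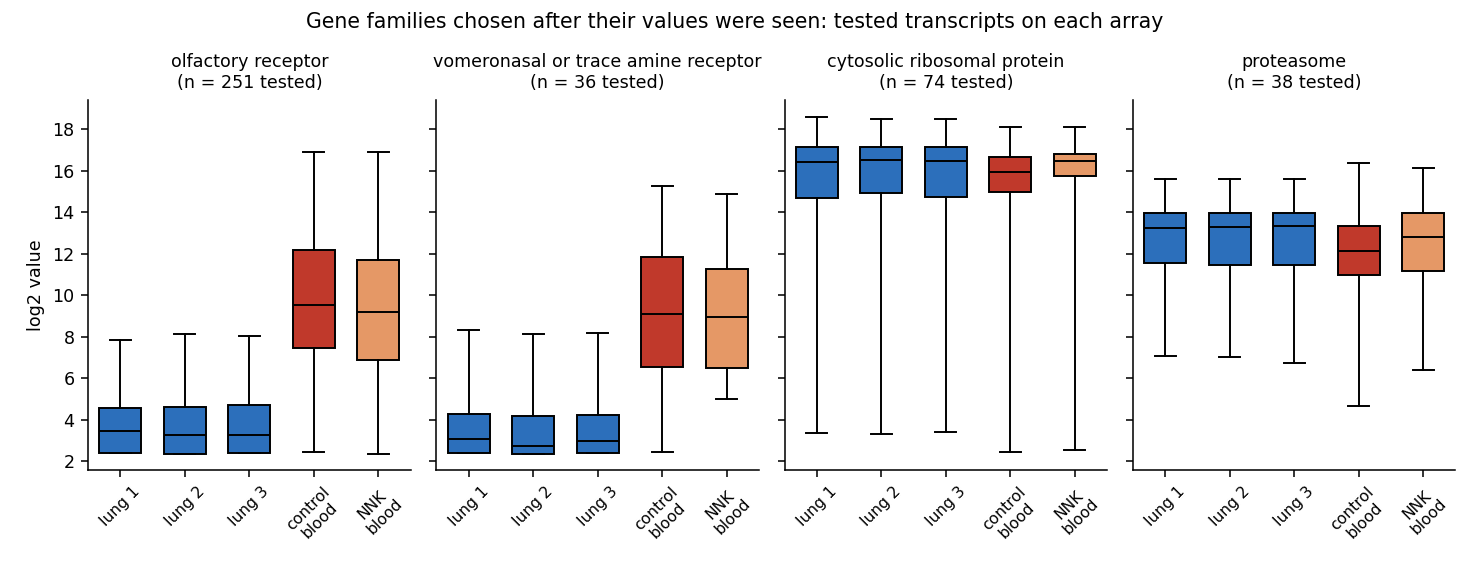
Distribution of deposited log2 values (y axis) of the tested transcripts of 4 gene families on each array (x axis), as boxes from the lower to the upper quartile with the median as a line and whiskers to the lowest and highest value. The olfactory receptors have a median of 3.35 over the lung means and 9.37 over the blood means, while ribosomal protein transcripts have 16.45 and 16.30.

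The lncRNAs are named here by the identifiers of the array, since only 20 of the 9361 lncRNA probes matched a gene symbol in RefSeq. Among those measured in both tissues, MRAK161604 led the lung side, with 17.40, 17.38 and 17.38 in lung and 5.96 and 9.22 in blood (9.80 ± 1.03, adjusted p = 0.0011 in limma). MRAK164527 had 13.99 to 14.02 against 5.08 and 5.69 (8.62 ± 0.23), and BC098071, MRAK052198, BC089934 and L19308 differed by 7.62 to 8.41. A lack of overlap between the tissues was required for the choice of these 6 as well, and 91.4% of all tested lncRNAs met it. Where blood was not above background, MRAK140220 had 15.96, 15.96 and 16.02 in lung and was at least 3517-fold higher, followed by BC089062, U57362, BC085903, MRAK003151 and AF543484 with bounds from 1447 to 2372. With the lung arrays counted as 1 sample MRAK161604 was no longer called (adjusted p = 0.055 in limma).

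On the blood side MRAK033066 had 16.74 and 16.68 in blood and 4.05, 3.98 and 4.4 in lung, 6068-fold higher in blood (-12.57 ± 0.19). AF145794, XR_008111, uc.285+, XR_006549 and MRAK053192 differed by -11.27 to -11.62. The letters uc denote an ultraconserved region, a stretch of DNA shared unchanged between distant mammals. Where lung was not above background, XR_005898 had 15.66 and 15.60 in blood and was at least 4830-fold higher, followed by AJ286304, MRAK048215, X69834, MRuc008ago and uc.256+ with bounds from 1607 to 3160. Control and NNK blood lay within 0.45 of each other in each of these 12 lncRNAs, and each kept its call with the lung arrays counted as 1 sample. These 12 too were chosen for their large differences.

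The calls of lncRNAs were also counted by name class, to be read beside 47.3% of all lncRNAs higher in blood and 35.9% in lung with the deposited values. Over all 4727 lncRNAs, 2848 were higher in blood and 1065 in lung after the 75th percentile shift, and 1682 and 2406 without scaling. Of 279 tested transcripts of ultraconserved regions, 72.8% were higher in blood and 20.1% in lung, with a median difference of -4.38, and blood stayed ahead in this class under each scaling tried (184 against 63 without scaling). Of 780 with predicted RefSeq names (XR_), 62.2% were higher in blood and 19.1% in lung. Of 724 named as cDNA clones (BC), 26.7% were higher in blood and 48.6% in lung. After the 75th percentile shift 267 were higher in blood and 255 in lung, still with a larger part in lung than the 1065 of all 4727 lncRNAs. The largest class, MRAK with 1911 transcripts, was divided, with 42.5% higher in blood and 43.1% in lung. Its split was 1061 in blood and 531 in lung after the 75th percentile shift, and 658 and 1059 without scaling. The classes also differed in detection. Of the 279 ultraconserved transcripts 101 were above background in blood alone, 41 in lung alone and 73 on all 5 arrays. Of the 724 BC transcripts the counts were 27, 158 and 460. Transcripts above background in one tissue alone were mostly called for it, and each scaling kept the same 279 and 724, so these shares partly reflect how the transcripts entered.

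**Figure D5:**
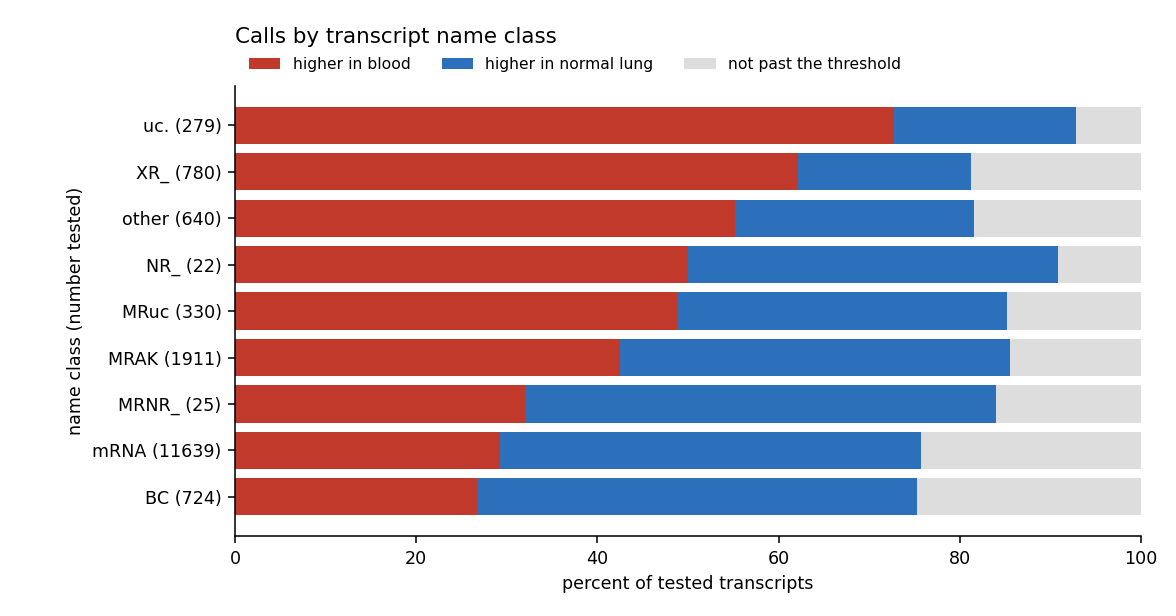
Percent of tested transcripts (x axis) that were higher in blood (red), higher in normal lung (blue) or not called (grey), by name class (y axis, with the number tested). The share higher in blood runs from 26.7% in BC to 72.8% in ultraconserved transcripts.

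The 5 lncRNAs that the study followed as candidates were also read. Gas5, a snoRNA host gene, had 9.37, 9.34 and 9.30 in lung and 12.79 and 12.17 in blood (-3.15 ± 0.23, adjusted p = 3.49e-04 in limma), and turned to the lung side without scaling. Tnxa-ps1, a pseudogene transcript, had 10.64 to 10.69 in lung and 7.40 and 4.6 in blood (adjusted p = 0.0079 in limma). Abhd11-as1, antisense to Abhd11, had 7, 6.97 and 7.10 in lung and 5.97 and 3.82 in blood (adjusted p = 0.041 in limma). The tissues did not overlap in either gene, which was also true of 91.4% of all tested lncRNAs. Only 1 of the 2 blood arrays was above background in each, so no exact difference is given. NR_027235 had 5.22 to 5.40 in lung and was not above background in blood, at least 2.06-fold higher in lung (adjusted p = 0.035 in limma). The imprinted H19 had 4.16 to 4.59 in lung and 7.99 and 5.47 in blood (adjusted p = 0.052 in limma). It missed the threshold, and 1 blood array was above background. None of the 5 was called with the lung arrays counted as 1 sample, and Abhd11-as1 and NR_027235 turned to the blood side after the 75th percentile shift.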

How the data were processed

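Arrays of 3 normal lung and 2 blood samples were used. For each array the authors deposited intensities per spot from Agilent Feature Extraction 10.5.1.1, which had subtracted the background without normalizing between arrays. The authors also deposited 1 log2 value per probe, quantile-normalized in GeneSpring over all 8 arrays. These log2 values were compared between tissues with limma 3.58.1 (lmFit and eBayes, R 4.3.3), with tissue as the only term and Benjamini-Hochberg adjustment over all 16350 transcripts. Groups were taken from the sample labels. The number of arrays limits the precision, and prior degrees of freedom were 1.27. RefSeq gave 1 symbol for 14274 of 15323 mRNA probes. For a gene with several probes, the one with the highest mean over the 5 arrays was used. Named were the 10 mRNAs and 6 lncRNAs with the largest difference per direction, apart for those measured on all 5 arrays and for bounds, up to 4 of the brightest members of each of 21 gene lists with those moving against their list, and the study's 5 candidates. These leading mRNAs and lncRNAs had to be called and to have lung and blood arrays that did not overlap. Cldn18, Nkx2-1, Sftpc, further list members and the gene families were named after their values were seen. Positions of probes were not used, and some list genes are not reported here. The members and lists were chosen with earlier results of these data known. The alternatives were other scalings, backgrounds, filters and tests, leaving out each array, and counting the lung arrays as 1 sample. The fit was tested on simulated data.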

Additional observations from a re-analysis of the deposited data

Results flagged for a closer look

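In 5 genes of the lists, the measured value of control blood lay at least 2-fold on one side of all 3 lung arrays and that of NNK blood at least 2-fold on the other side. Over all 11639 tested mRNAs, 134 met this rule with control blood below lung and NNK blood above it, and 93 the other way round. The differences given are control minus NNK blood on the log2 scale, and with 1 array per treatment they were not tested. For Mybpc3, a heart myosin-binding protein, the difference was 8.84, with 12.21 in control blood, 3.37 in NNK blood and 4.57 to 4.67 in lung. NNK blood was not above background there, and at its background level of 3.95 it would not lie 2-fold below lung, so 8.84 is no exact difference. For Cd247, a T cell receptor chain, it was -3.05, with 10.96 and 14.01 in blood and all lung values between them. For the granzymes Gzmk and Gzmm it was -3.58 and -3.43, and for the B cell adaptor Blnk -4.66, with lung values of 12.31 to 12.39, 12.90 to 12.95 and 10.04 to 10.15. These 4 genes were above background on both blood arrays. The part of the treatment, of the donor and of the clot in these differences was not tested.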

How the results depend on the processing

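Over 3325 values under alternatives, 3096 kept the same call or lack of one, 172 lost the call, 8 gained it and 49 changed sign. For transcripts not called with the deposited values, a change of sign was counted only where the alternative made a call. Counts of calls moved by over 1.5 times in these settings. Without scaling, 8367 mRNAs were higher in lung and 1829 in blood. With the lung arrays counted as 1 sample, 1856 and 1617 mRNAs and 589 and 1165 lncRNAs were called, and 111 of 176 called named transcripts were called. With transcripts above background on all 5 arrays alone, which tests fewer, 2718 mRNAs were higher in lung and 637 and 1130 lncRNAs higher in lung and blood. The 75th percentile shift gave 1065 lncRNAs higher in lung and the shared percentile 1037. Leaving out each array in turn gave 4658 to 6166 and 3140 to 3701 mRNAs and 1509 to 1847 and 2081 to 2332 lncRNAs. Without 1 blood array the spread comes from lung alone, and the lone blood array is assumed to vary like it.

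Without scaling these differences turned to the lung side: Gas5 0.86, Des 1.19, Notch3 1.51, Fbln1 0.58, Mcemp1 1.75, Padi4 2.37, Lat 2.71, Klrk1 0.064, Klrb1a 3.03, Pou2af1 2.55, Fcgr1a 1.43, Fcnb 0.73, Cd14 2.10, Fga 1.35, Tdo2 0.64, Rrm2 2.19, Mcm2 1.97, Cdk1 1.85, Tyms 1.54, Tal1 1.67 and Actb 0.50. After the 75th percentile shift, and with the shared percentile, these turned to the blood side: Abhd11-as1 -0.59 and -0.61, NR_027235 -1.79 and -1.81, Myh6 -2.39 and -2.41, Tnnt2 -2.13 and -2.15, Lcn2 -1.49 and -1.51, Klrc1 -2.36 and -2.38, Cx3cr1 -0.83 and -0.85, Lyz2 -2.00 and -2.02, Myh1 -1.75 and -1.77, Tnni2 -1.25 and -1.27, Ppia -0.071 and -0.092, Nkx2-1 -2.44 and -2.46, and Cldn18 -1.31 and -1.33. With values raised to the background level Tnnt2 was -0.042 and Klrc1 -0.19. The cause of these changes was not tested. Ppox, Fech and other further list members were not among the transcripts followed here. The methods' t-test called 5027 and 3255 mRNAs and 1600 and 2147 lncRNAs at the study's threshold, and 4806, 3147, 1533 and 2101 after Benjamini-Hochberg adjustment. No paired analysis was possible because lung and blood numbers do not mark the same rats.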
